A study of Mus musculus with 12 samples.

Results

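The 54 genes described here encode the parts of mTOR signalling, from the 2 mTOR complexes themselves to the proteins that switch them on and off and the kinases and translation factors downstream of them. They were picked by gene symbol from a list drawn up by role, all 54 were found, and they are 54 of the 34745 genes in the expression table. The RNA came from cultures of MLE-12, a line of mouse lung epithelium with AT II traits, and was sequenced in 4 groups of 3 libraries, each taken at 24 h. The LPS group received 100 ng/mL LPS in 21% oxygen, and the LPS + M2-Exo group received in addition 10 μg/mL of M2-Exo, the exosomes of alveolar macrophages (MH-S cells) polarised with IL-4. The Hyp group was kept in 85% oxygen without LPS, and the Hyp + M2-Exo group received the same dose of M2-Exo in 85% oxygen. None of the 12 libraries came from untreated cells, so M2-Exo was compared within each injury and hyperoxia was compared with LPS. All libraries came from 1 cell line, which was immortalised with the SV40 large T antigen, and the labels do not say that libraries of a group came from separate cultures, so the p-values measure only the spread between these libraries.

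mTOR is a kinase that joins nutrient and growth factor signals and sets protein synthesis and autophagy. It works in a pair of complexes, mTORC1 with Rptor and mTORC2 with Rictor. Amino acids act through the Rag GTPases, which the Ragulator holds on the lysosome, whereas insulin and growth factors act through PI3K, AKT and the TSC complex, which keeps the small GTPase Rheb off.

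Total counts lay between 16021833 and 24074616 per library. Of the 54 members, 50 had a mean above 1 FPKM, a level per length of transcript and per library total, over the 12 libraries. The other 4 were Deptor, Prkaa2, Prr5 and Prr5l. Members were tested on their counts with edgeR, scaled by TMM, and a member was called when its p, adjusted by Benjamini-Hochberg over all genes tested, was under 0.05. Prr5l, with between 1 and 11 counts per library, was too low to be tested, and Prr5, with 0 to 15, was tested in LPS with and without M2-Exo and in the comparison of the 2 M2-Exo differences only, which left 52 or 53 members in each test. Both genes encode mTORC2 subunits.

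With M2-Exo, 1 of these genes passed the test in LPS and none did in hyperoxia. In LPS, 1 of 53 tested members, Rragd, was called, and was higher with M2-Exo, against 0.187% of all genes tested. A further 7 members had an unadjusted p under 0.05 without being called, which made 15.1% of the members below that level against 11.1% of all genes. In hyperoxia edgeR called 0 of 52 members, against 0.101% of all genes. The smallest adjusted p there was 0.414, for Rheb, and 9 members (17.3%, against 8.48% of all genes) had an unadjusted p under 0.05. DESeq2 and limma also called 0 members in hyperoxia. The median size of the members' log2 fold change with M2-Exo was 0.05 in LPS and 0.06 in hyperoxia, where it was 0.07 for all genes tested in both injuries. Groups with and without M2-Exo did not overlap for 24.5% of members in LPS and 21.2% in hyperoxia, against 16.6% and 15.6% of all genes.

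The M2-Exo difference itself did not differ by a called amount between the injuries for any member tested by edgeR (0 of 53 in the interaction test, against 0.0352% of all genes). An unadjusted p under 0.05 was found for 13 members (24.5%, against 9.78% of all genes), of which Fnip2 had the smallest adjusted p, 0.243. DESeq2 called Fnip2 alone in that test, and limma called 0 members.

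**Figure D1:**
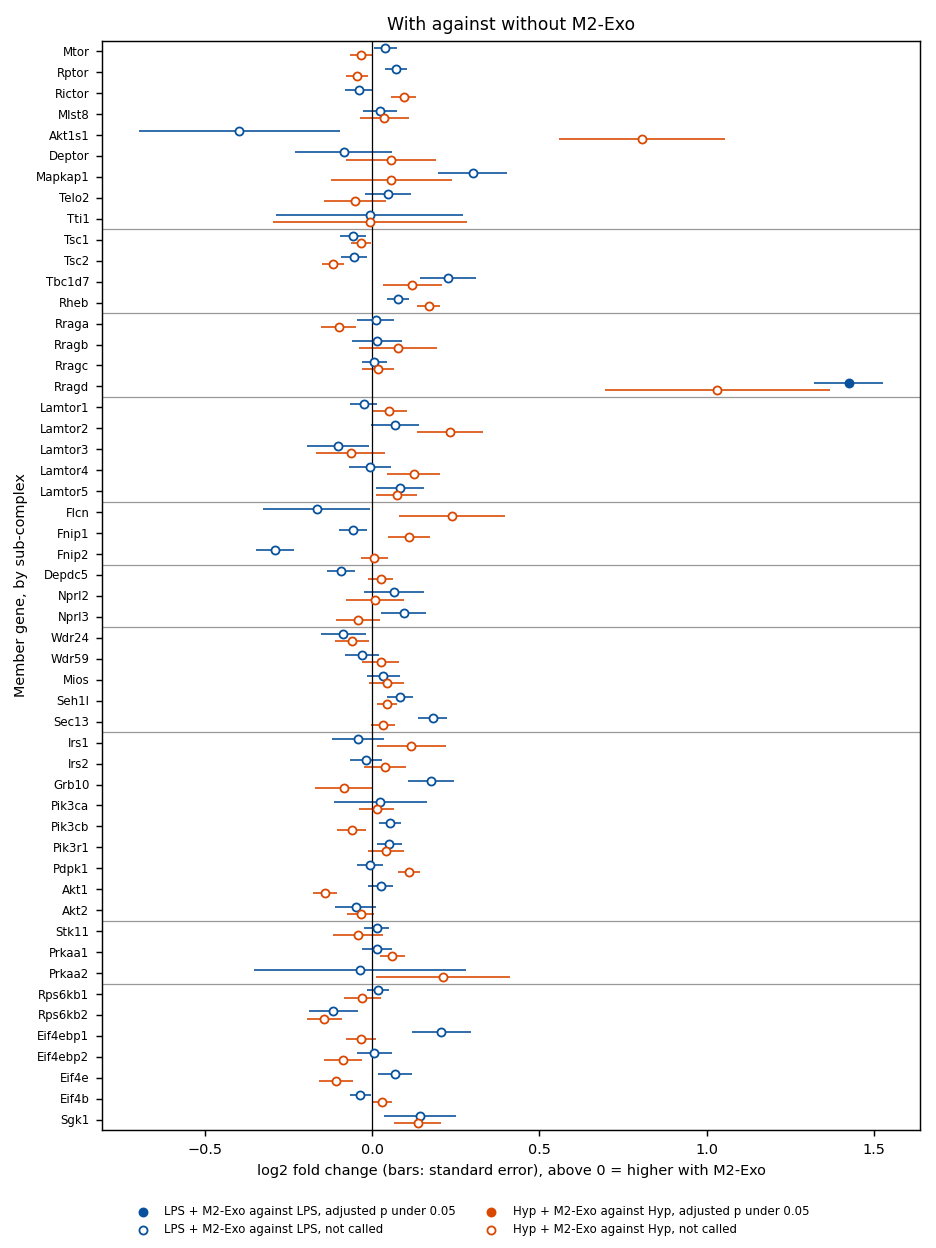
The log2 fold change of 52 members with against without M2-Exo, in LPS (blue) and in hyperoxia (orange), with its standard error as a bar; lines part the sub-complexes. Rragd in LPS, at 1.43, is the 1 filled point, while most members lie close to 0.

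Between hyperoxia and LPS, most members differed, as did most genes. Hyp differed from LPS in 39 of 52 members, which is 75% against 75.8% of all genes tested; 24 were higher and 15 lower, where 38% and 37.8% of all genes were. With M2-Exo in both groups, 41 of 52 members were called, or 78.8% against 73.7% of all genes; 27 were higher in hyperoxia and 14 lower, where 37.1% and 36.5% of all genes were. Called in both of these comparisons, which share no library, were 36 members (69.2%, against 67.8% of all genes), and 0 were called in opposite directions. In both, 23 members were higher in hyperoxia and 13 lower, where 34% and 33.8% of all genes were. The share of members called was therefore near that of all genes. On levels scaled by TMM, the 2 groups did not overlap for 75% and 76.9% of the members, against 78.8% and 76.8% of all genes. The median size of the log2 fold change was 0.36 and 0.31 for the members and 0.51 and 0.52 for all genes. A difference of at least 0.5 on the log2 scale was called for 17 and 19 members (32.7% and 36.5%), against 48.6% and 49.2% of all genes. The interaction test given above is also the test of whether the difference between hyperoxia and LPS changed with M2-Exo, so a member called in 1 of these comparisons alone was not shown to differ between them. Scaled by library size alone, which moved the median of all genes up by 0.09 in each of these comparisons, the calls became 28 higher and 10 lower in Hyp, and 29 higher and 11 lower in Hyp + M2-Exo. FPKM carry that same offset, so FPKM in hyperoxia run slightly higher against LPS than the fold changes given beside them.

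Other genes moved with the injury as well, and their part in the members' differences was not tested. Of 31 markers of cell types, 23 were tested in each comparison of hyperoxia with LPS. Called were 22 of them without M2-Exo and 20 with it, where 75.8% and 73.7% of all genes were. Of all genes, 37.8% and 36.5% were called lower, and 38% and 37.1% higher. Of 11 AT II markers, 6 were lower and 2 higher in hyperoxia in each comparison, and their summed level was 115 to 124 FPKM in LPS, 114 to 127 in LPS + M2-Exo, 59.3 to 64.8 in Hyp and 61.3 to 65.9 in Hyp + M2-Exo. Sftpa1, Sftpd and Lamp3 were not tested. Among these markers Nkx2-1, the transcription factor of lung epithelium, had 51.5 to 52.0 FPKM in LPS and 12.1 to 13.3 in Hyp, Sftpc had 26.0 to 28.2 and 13.5 to 15.6, and Sftpa1 and Sftpd had at most 1 count in any library. The 2 higher were Sftpb and Etv5. Sftpb had 0.399 to 0.560 FPKM in LPS and 1.38 to 1.68 in Hyp. On the log2 scale, Sftpb was higher by 1.62 ± 0.17 and, with M2-Exo in both groups, 1.56 ± 0.18. Etv5 was higher by 0.50 ± 0.07 and 0.41 ± 0.06. Of 4 epithelial markers, 3 were lower in Hyp than in LPS and 1, Cdh1, was lower with M2-Exo in both groups. The fourth, Krt18, had at most 4 counts and was not tested. Their sum of 77.2 to 89.8 FPKM over all libraries was mostly Krt8, at 74.2 to 86.5. Cdh1 had 2.72 to 3.08 FPKM in LPS and 0.602 to 0.697 in Hyp (-2.25 ± 0.10 on the log2 scale, and -2.42 ± 0.14 with M2-Exo). Macrophage markers summed to 128 to 146 FPKM in LPS, 99.4 to 112 in LPS + M2-Exo, 35.5 to 38.5 in Hyp and 28.2 to 42.2 in Hyp + M2-Exo. Lyz2 made most of that sum, at 69.6 to 85.5 FPKM in LPS and 19.9 to 22.1 in Hyp. Of these 11 markers, 6 were lower and 1 higher in hyperoxia in each comparison, and Arg1, Chil3 and Siglecf had at most 3 counts and were not tested. The higher one was Itgax, at 0 to 0.0296 FPKM in LPS and 0.104 to 0.235 in Hyp. Its log2 fold changes were 3.92 ± 0.78 and, with M2-Exo in both groups, 5.04 ± 1.04. The 5 fibroblast and endothelial markers, with Cdh5 at most at 1 count and Dcn making most of the sum, summed to 344 to 374 FPKM in the LPS libraries and 159 to 173 in the hyperoxia libraries. Of these 5, 3 were lower and 1 higher in hyperoxia in each comparison. Pdgfra, a fibroblast marker of that list, had 1.38 to 1.49 FPKM in LPS and 0.0626 to 0.0833 in Hyp, a log2 fold change of -4.44 ± 0.12 (SE), and -3.81 ± 0.13 with M2-Exo in both groups. The higher one was Pecam1 (2.72 ± 0.28 and 4.05 ± 0.29), at 0.0179 to 0.0409 FPKM in LPS and 0.233 to 0.243 in Hyp. With M2-Exo edgeR called 0 of 21 tested markers in LPS and 0 of 23 in hyperoxia. An unadjusted p under 0.05 was found for 7 of the 21 and 4 of the 23, larger shares than the 11.1% and 8.48% of all genes. The 7 in LPS were all lower with M2-Exo: the macrophage markers Ptprc, Adgre1, Csf1r, Lyz2 and Cd68, with Krt8 and Dcn. Of the 4 in hyperoxia, Abca3 was lower, and Sftpc, Pdgfra and Pecam1 were higher. In bulk RNA, fewer cells of a type and less RNA per cell cannot be told apart, and neither can oxygen, LPS and anything else that differed between the 2 sets of cultures. The labels do not say whether both sets came from the same stock of MLE-12 cells, which bears on every comparison of hyperoxia with LPS.

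**Figure D2:**
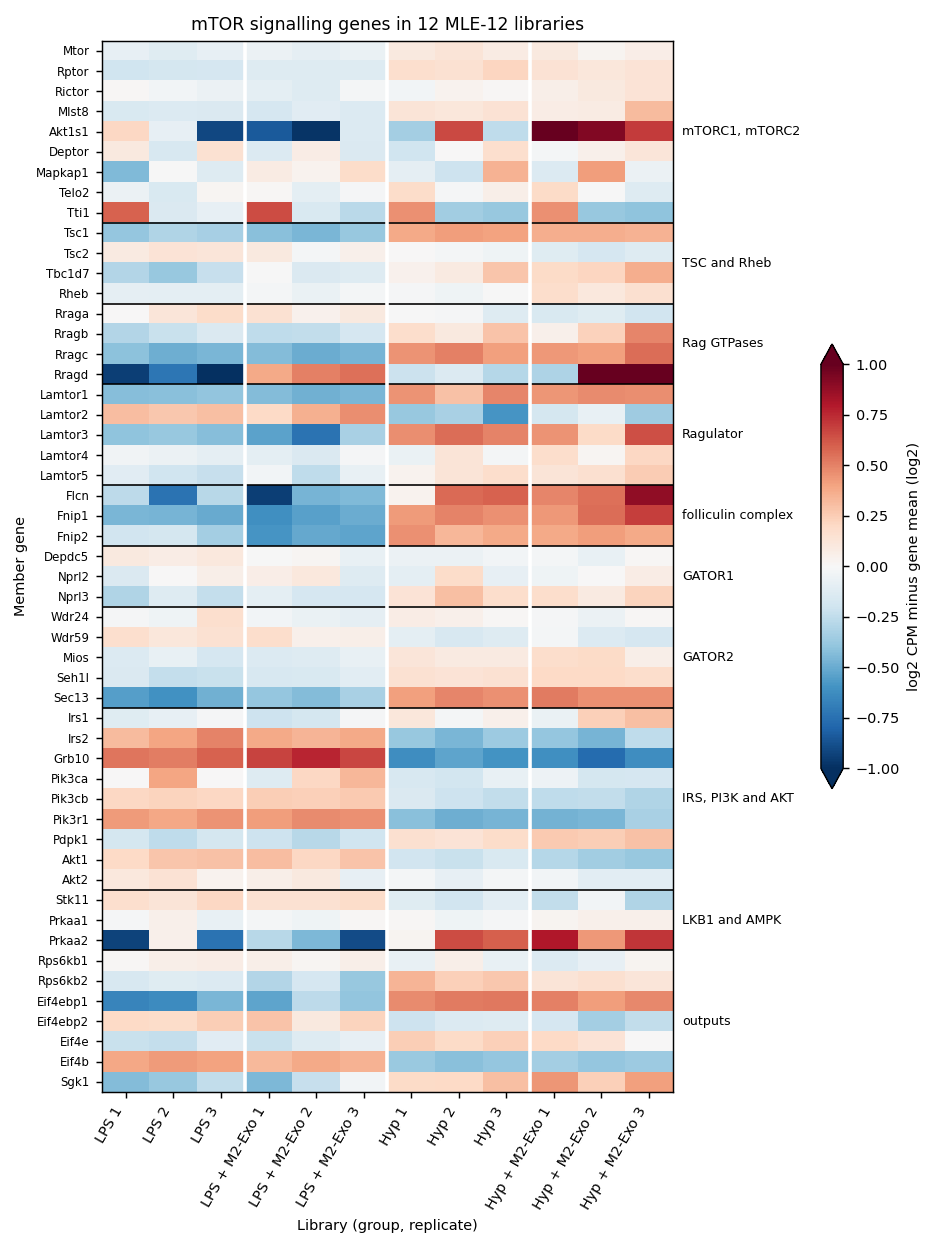
The level of each of 52 members (rows, parted by sub-complex) in the 12 libraries (columns), as log2 CPM, TMM-scaled, minus the gene's mean; the colour scale ends at -1 and 1. The 6 LPS libraries and the 6 hyperoxia libraries form 2 blocks in the folliculin complex, Rragc, Tsc1, Sec13, Pik3r1, Grb10 and Eif4b.

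Among the subunits of the mTOR complexes, 3 of 9 tested members were called in Hyp against LPS and 5 of 9 with M2-Exo in both groups, all of them higher in hyperoxia, where 75.8% and 73.7% of all genes were called and 38% and 37.1% were called higher. Mtor, the kinase, stood at 10.2, 9.90 and 10.04 FPKM in LPS, 10.4, 10.2 and 10.2 in LPS + M2-Exo, 12.2, 12.4 and 12.1 in Hyp and 12.2, 11.7 and 11.97 in Hyp + M2-Exo. Its levels in hyperoxia lay above all those in LPS, by a log2 fold change of 0.19 ± 0.03 (SE) without M2-Exo (adjusted p = 0.000640, edgeR) and 0.13 ± 0.04 with it (adjusted p = 0.0163, edgeR). The second call was lost without replicate 2 or replicate 3 of LPS + M2-Exo, with adjusted p of up to 0.0614, and by DESeq2. Rptor, which brings substrates to mTORC1, had 5.97, 6.04 and 6.01 FPKM in LPS, 6.30, 6.36 and 6.18 in LPS + M2-Exo, 8.10, 8.04 and 8.43 in Hyp and 7.99, 7.83 and 7.95 in Hyp + M2-Exo. It was higher in hyperoxia by 0.36 ± 0.03 and 0.24 ± 0.04 on the log2 scale, again with no overlap. Rictor, the scaffold of mTORC2, had 12.5, 12.1 and 11.7 FPKM in LPS, 11.6, 11.5 and 12.1 in LPS + M2-Exo, 12.8, 13.4 and 13.2 in Hyp and 13.6, 13.98 and 14.4 in Hyp + M2-Exo. Rictor was called with M2-Exo only (0.17 ± 0.04, adjusted p = 0.00721, edgeR), and the difference without M2-Exo was 0.03 ± 0.03. Mlst8, shared by both complexes, was called higher in both comparisons (0.27 ± 0.05 and 0.29 ± 0.08). Deptor, an inhibitor of mTOR at 0.316 to 0.420 FPKM, Mapkap1, an mTORC2 subunit, and Telo2 and Tti1, which help to assemble the kinase, were called in neither, with log2 fold changes between -0.20 and 0.22.

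Akt1s1 (PRAS40), which holds back mTORC1 until AKT phosphorylates it, was uneven between replicates. It had 8.40, 6.85 and 3.82 FPKM in LPS, 4.09, 3.72 and 6.53 in LPS + M2-Exo, 6.04, 12.1 and 6.45 in Hyp and 15.9, 14.6 and 12.5 in Hyp + M2-Exo. Its Hyp + M2-Exo libraries lay above all others, its LPS and Hyp libraries overlapped, and the difference of hyperoxia from LPS was 1.49 ± 0.20 with M2-Exo (adjusted p = 0.000204, edgeR) and 0.28 ± 0.33 without (adjusted p = 0.463, edgeR). The difference with M2-Exo in hyperoxia, 0.81 ± 0.25 on the log2 scale, was not called (adjusted p = 0.544, edgeR), but was called without replicate 2 of Hyp, at 1.20 (adjusted p = 0.0135, edgeR). Tti1, singled out after its values were seen, had 5.21 to 5.71 FPKM in replicate 1 of each of the 4 groups and 2.90 to 3.37 in the other 8 libraries. Rragd, described with the Rag GTPases, was the third member of 50 with at least 100 counts on average whose highest library was over 1.5 times the lowest of its own group, which is 6% of members against 9.91% of 10742 such genes.

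**Figure D3:**
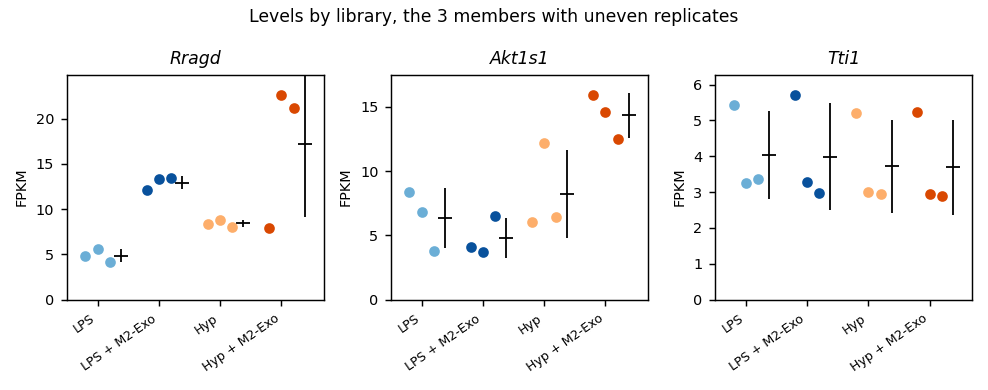
FPKM in each library (points, replicates 1 to 3 from left to right in each group) with the group mean and SD (black), for the 3 members with uneven replicates. Rragd parts replicate 1 of Hyp + M2-Exo (7.86 FPKM) from the other 2 (22.6 and 21.1), Akt1s1 spreads in 3 groups, and Tti1 is high in replicate 1 of every group.

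In the TSC complex, Tsc1, the subunit that stabilises it, was higher in hyperoxia than in LPS, while Tsc2, its catalytic subunit, was slightly lower. Tsc1 had 5.67, 6.0004 and 5.80 FPKM in LPS, 5.59, 5.47 and 5.64 in LPS + M2-Exo, 10.1, 10.4 and 10.3 in Hyp and 10.1, 10.1 and 9.997 in Hyp + M2-Exo. All 6 hyperoxia libraries lay above the 6 LPS libraries, at log2 fold changes of 0.73 ± 0.03 (adjusted p = 5.14e-07, edgeR) and 0.76 ± 0.04 (adjusted p = 5.72e-07, edgeR). Tsc2 had 25.7, 26.5 and 25.9 FPKM in LPS, 26.05, 24.1 and 24.7 in LPS + M2-Exo, 25.6, 25.1 and 24.9 in Hyp and 23.4, 22.8 and 23.4 in Hyp + M2-Exo. The log2 fold changes of Tsc2 were -0.14 ± 0.03 and -0.20 ± 0.04, and the first was not called after scaling by library size alone, where it was -0.05. Tsc2 shares 578 bases with Pkd1 on the opposite strand, and reads there cannot be told apart without strand. Tbc1d7, the smallest subunit, was higher in hyperoxia in both comparisons (0.44 ± 0.09 and 0.34 ± 0.09). Rheb, which activates mTORC1, had 14.3, 14.2 and 14.04 FPKM in LPS, 15.1, 14.7 and 14.9 in LPS + M2-Exo, 15.9, 15.6 and 16.1 in Hyp and 18.1, 17.3 and 17.996 in Hyp + M2-Exo. Rheb was called with M2-Exo only (0.17 ± 0.04, adjusted p = 0.00348, edgeR); without it the difference was 0.07 ± 0.03 (adjusted p = 0.0526, edgeR).

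The Rag GTPases work as pairs of RagA or RagB with RagC or RagD, and their 4 genes went different ways. Rragc had 22.01, 20.8 and 20.99 FPKM in LPS, 21.8, 21.003 and 20.997 in LPS + M2-Exo, 42.2, 43.7 and 41.1 in Hyp and 41.6, 41.2 and 45.6 in Hyp + M2-Exo. All hyperoxia libraries lay above all LPS libraries, by 0.90 ± 0.04 without M2-Exo and 0.92 ± 0.05 with it on the log2 scale (adjusted p = 2.72e-07 and 9.87e-07, edgeR). Rragb, the other member called higher in both, was higher by 0.41 and 0.47. Rraga, at 38.9 to 46.9 FPKM, was lower in hyperoxia by small amounts (-0.16 ± 0.06 and -0.26 ± 0.05); the first of these calls was lost in 5 of 6 fits that left out 1 library and after scaling by library size alone.

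Rragd, whose product can take the place of RagC, was the one member called with M2-Exo, and it is described for that reason, after its values were seen. It had 4.81, 5.59 and 4.11 FPKM in LPS, 12.1, 13.3 and 13.4 in LPS + M2-Exo, 8.36, 8.84 and 8.01 in Hyp and 7.86, 22.6 and 21.1 in Hyp + M2-Exo. With M2-Exo in LPS it rose 2.69-fold, its groups did not overlap, and the log2 fold change was 1.43 ± 0.10 (adjusted p = 0.00248, edgeR). That call held in all 6 fits that left out 1 library, with 1.32 to 1.54, and was lost in a fit of all 12 libraries (adjusted p = 0.103, edgeR). In hyperoxia replicate 1 of Hyp + M2-Exo lay below all 3 Hyp libraries, and the other 2 lay above every library of the other groups. The log2 fold change of 1.03 ± 0.34 was not called there (adjusted p = 0.544, edgeR), and without that replicate it was 1.38 (adjusted p = 0.00105, edgeR). The 2 M2-Exo differences of Rragd did not differ by a called amount (-0.39 ± 0.40 on the log2 scale, adjusted p = 0.791, edgeR). Hyp was also above LPS (0.71 ± 0.10, adjusted p = 0.000333, edgeR); with M2-Exo in both groups the difference was 0.32 ± 0.33 and not called, or 0.67 and called without the same replicate (adjusted p = 7.88e-05, edgeR). No other gene of the table overlaps Rragd.

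The 5 subunits of the Ragulator form 1 scaffold on the lysosome, and their genes did not all go the same way: 3 were called higher and 1 lower in hyperoxia without M2-Exo, and 4 higher and 1 lower with it. Of all genes, 38% were called higher and 37.8% lower without M2-Exo, and 37.1% and 36.5% with it. Lamtor1, the membrane anchor, had 45.8, 46.1 and 46.2 FPKM in LPS, 45.8, 44.8 and 44.3 in LPS + M2-Exo, 88.6, 79.6 and 91.1 in Hyp and 88.1, 90.2 and 89.97 in Hyp + M2-Exo. Its median FPKM over the 12 libraries was the highest of the members after Eif4b, but in the LPS libraries it lay below Akt1. Lamtor3 had 5.78, 5.89 and 5.61 FPKM in LPS, 5.32, 4.64 and 6.04 in LPS + M2-Exo, 11.2, 11.9 and 11.4 in Hyp and 10.99, 9.27 and 12.7 in Hyp + M2-Exo. Both were higher in every hyperoxia library than in every LPS library, Lamtor1 by 0.82 ± 0.05 and 0.90 ± 0.04 and Lamtor3 by 0.91 ± 0.05 and 0.95 ± 0.13 on the log2 scale. Lamtor2, the direct partner of Lamtor3, had 14.5, 14.1 and 14.1 FPKM in LPS, 13.5, 15.1 and 15.9 in LPS + M2-Exo, 9.42, 9.84 and 8.19 in Hyp and 10.9, 11.7 and 9.64 in Hyp + M2-Exo. It was lower in hyperoxia, again without overlap, at log2 fold changes of -0.73 ± 0.08 (adjusted p = 5.00e-05, edgeR) and -0.56 ± 0.09 (adjusted p = 0.000818, edgeR). Lamtor5 was higher by 0.29 and 0.28, and Lamtor4 was called with M2-Exo only (0.21, lost in 5 of 6 fits without 1 library). Stretches of 50 bases shared with other genes made up 14.5% of the transcript of Lamtor5, 8.09% of Lamtor1 and 5.46% of Lamtor3, so their levels are less certain.

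Folliculin (Flcn) and its partners Fnip1 and Fnip2 activate RagC and RagD, and all 3 genes of this folliculin complex were higher in hyperoxia than in LPS. Of all genes tested, 38% were called higher in Hyp against LPS and 37.1% with M2-Exo in both groups. Flcn had 11.6, 8.29 and 11.3 FPKM in LPS, 7.29, 10.2 and 10.1 in LPS + M2-Exo, 15.02, 21.8 and 22.1 in Hyp and 20.5, 21.6 and 27.2 in Hyp + M2-Exo. Fnip1, the more abundant partner, had 16.9, 16.8 and 16.1 FPKM in LPS, 15.2, 16.1 and 16.2 in LPS + M2-Exo, 32.8, 34.4 and 33.6 in Hyp and 32.9, 36.2 and 39.6 in Hyp + M2-Exo. Fnip2 had 8.07, 8.16 and 7.18 FPKM in LPS, 6.18, 6.55 and 6.32 in LPS + M2-Exo, 13.3, 12.2 and 12.7 in Hyp and 12.6, 13.04 and 12.7 in Hyp + M2-Exo. In each case every hyperoxia library exceeded every LPS library. Of all genes tested, 39.9% lay higher without overlap in Hyp against LPS, and 39.6% with M2-Exo in both groups. The log2 fold changes without and with M2-Exo were 0.83 ± 0.17 and 1.24 ± 0.15 for Flcn, 0.93 ± 0.03 and 1.10 ± 0.07 for Fnip1, and 0.62 ± 0.05 and 0.92 ± 0.04 for Fnip2, and the adjusted p of Fnip1 in Hyp against LPS was 1.18e-07 (edgeR), the smallest of any member there. With M2-Exo in LPS, the Fnip2 libraries lay below all 3 without it (-0.29 ± 0.06 on the log2 scale), which edgeR did not call (adjusted p = 0.155) and DESeq2 did (adjusted p = 0.0086). In hyperoxia M2-Exo changed Fnip2 by 0.01 ± 0.04.

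**Figure D4:**
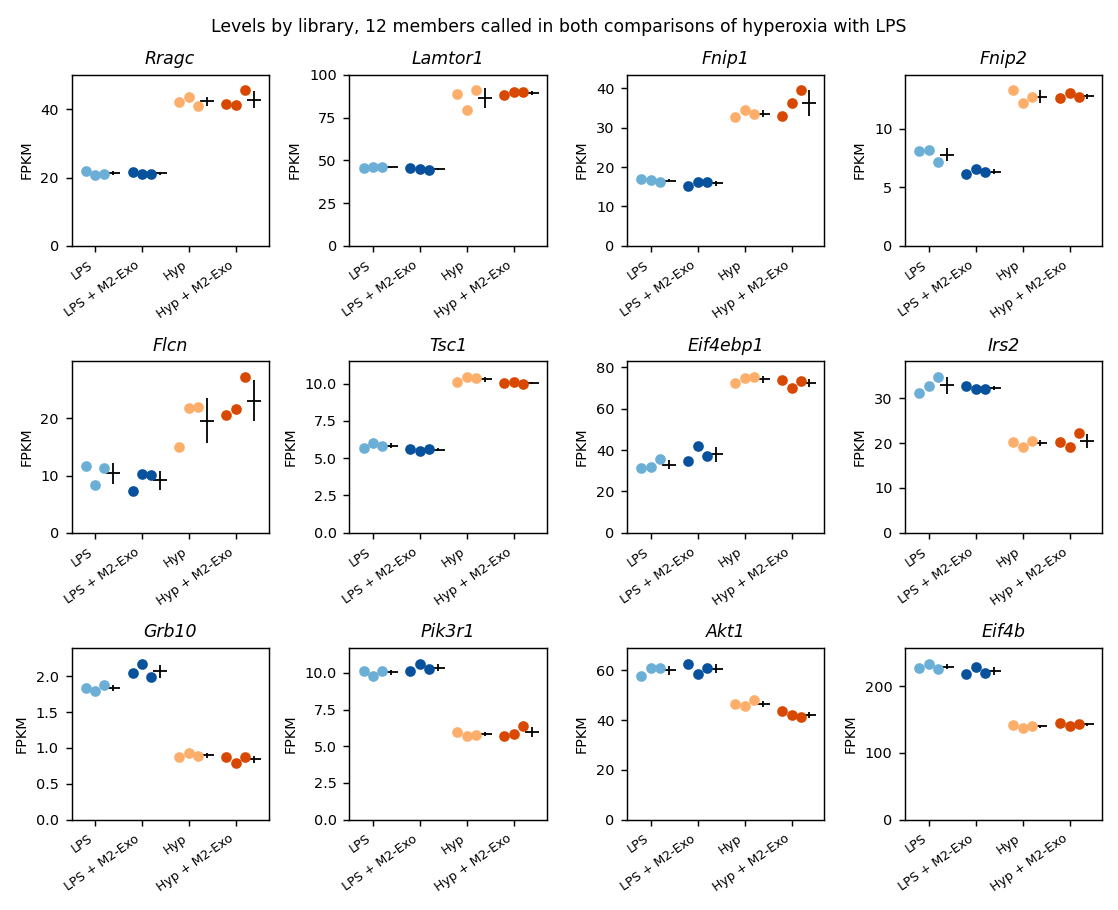
FPKM in each library (points, replicates 1 to 3 from left to right in each group) with the group mean and SD (black), for 12 members called in both comparisons of hyperoxia with LPS; every axis starts at 0. Rragc, Lamtor1, the folliculin complex, Tsc1 and Eif4ebp1 are higher and Irs2, Grb10, Pik3r1, Akt1 and Eif4b lower in both hyperoxia groups, without overlap.

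The promoters of the genes that moved together were read from RefSeq on GRCm38.p6, as windows of 300 bases from 250 before to 50 after the transcript start, for 48 members. A gene can have several such windows, 1 for each start, and was counted if any of them held the match. The letters searched were CACGTG, which reads the same on both strands and is the core that many basic helix-loop-helix proteins bind, such as the MYC, USF and TFEB families. They were present in 12 of the 48 members (25.0%), against 8.09% of 27025 genes with a window and 11.7% of genes tested in both comparisons of hyperoxia with LPS. By call, they were found in 7 of 19 members higher in hyperoxia in both comparisons (36.8%), in 1 of 13 lower in both (7.69%, Irs2) and in 4 of the 16 others (25.0%), against 14.1% of all genes called higher in both and 9.39% of all called lower. The 7 were Eif4e, Fnip1, Lamtor1, Rragb, Rragc, Sgk1 and Tbc1d7, of which Eif4e held it in 1 of 2 windows and Sgk1 in 1 of 6. A match is a run of letters and not a measured binding site. The windows of the 3 members among them with the largest differences are shown with the match in capitals, beside that of Rragd, the member called with M2-Exo, which has no match in its window. They lie at chr4:123917183-123917482 for Rragc, chr7:101905587-101905886 for Lamtor1, chr11:54437929-54438228 for Fnip1 and chr4:32982748-32983047 for Rragd, all on the plus strand, and the match starts 112, 68 and 75 bases before the transcript start in the first 3.
Rragc: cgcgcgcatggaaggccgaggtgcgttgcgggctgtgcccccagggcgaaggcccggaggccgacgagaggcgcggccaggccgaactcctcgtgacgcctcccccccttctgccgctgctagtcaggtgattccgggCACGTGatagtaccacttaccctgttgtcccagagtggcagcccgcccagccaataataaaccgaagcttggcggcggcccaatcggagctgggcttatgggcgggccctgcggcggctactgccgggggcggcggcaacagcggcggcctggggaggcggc
Lamtor1: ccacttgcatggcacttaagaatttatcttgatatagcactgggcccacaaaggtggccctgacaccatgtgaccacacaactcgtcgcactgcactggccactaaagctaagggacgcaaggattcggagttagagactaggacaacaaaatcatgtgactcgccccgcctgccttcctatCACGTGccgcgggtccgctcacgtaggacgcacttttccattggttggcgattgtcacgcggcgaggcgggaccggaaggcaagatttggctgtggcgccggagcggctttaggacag
Fnip1: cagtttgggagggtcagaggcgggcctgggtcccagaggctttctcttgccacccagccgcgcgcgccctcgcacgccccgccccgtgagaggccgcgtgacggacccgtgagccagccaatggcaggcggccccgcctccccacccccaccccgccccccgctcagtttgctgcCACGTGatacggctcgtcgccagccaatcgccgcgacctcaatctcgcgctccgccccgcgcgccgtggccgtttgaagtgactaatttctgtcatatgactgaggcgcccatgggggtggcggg
Rragd: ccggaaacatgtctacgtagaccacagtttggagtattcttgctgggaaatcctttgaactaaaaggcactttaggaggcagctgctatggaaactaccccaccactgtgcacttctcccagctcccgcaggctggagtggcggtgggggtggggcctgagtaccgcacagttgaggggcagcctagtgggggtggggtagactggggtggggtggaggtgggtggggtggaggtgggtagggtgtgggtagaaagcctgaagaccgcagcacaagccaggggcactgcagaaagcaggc

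GATOR1 turns RagA and RagB off when amino acids are short, and GATOR2 opposes it. In GATOR1, Nprl3 was higher in hyperoxia in both comparisons (0.42 ± 0.07 and 0.29 ± 0.07), Depdc5 was lower without M2-Exo only (-0.15 ± 0.03, lost after scaling by library size alone), and Nprl2 was not called in either. Nprl3 shares 6196 bases with Mpg on the opposite strand, and Mpg had 744 to 854 counts in the hyperoxia libraries and 372 to 529 in the LPS libraries. In GATOR2, Sec13, which also serves in protein transport from the endoplasmic reticulum, had 30.4, 29.2 and 31.5 FPKM in LPS, 34.3, 33.3 and 35.2 in LPS + M2-Exo, 62.3, 65.96 and 64.7 in Hyp and 67.4, 64.7 and 64.9 in Hyp + M2-Exo. Seh1l, which like Sec13 belongs to the nuclear pore too, had 34.8, 32.7 and 32.6 FPKM in LPS, 34.8, 35.2 and 35.5 in LPS + M2-Exo, 45.1, 44.8 and 45.4 in Hyp and 46.5, 46.9 and 45.98 in Hyp + M2-Exo. Both lay higher in all hyperoxia libraries, Sec13 by 0.99 ± 0.04 and 0.85 ± 0.04 and Seh1l by 0.35 ± 0.03 and 0.31 ± 0.03 on the log2 scale. Of the subunits found in GATOR2 alone, Mios was higher by 0.22 and 0.24, Wdr59 was lower (-0.28 ± 0.04 and -0.22 ± 0.06, the second lost without replicate 2 or replicate 3 of Hyp + M2-Exo) and Wdr24 was not called. The second call of Wdr59 was also lost after scaling by library size alone and by limma.

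The insulin receptor substrates, PI3K and AKT were the 1 sub-complex with more members called lower than higher in hyperoxia in both comparisons, with 8 of 9 members called in Hyp against LPS, 7 of them lower, and 7 of 9 with M2-Exo, 6 of them lower; of all genes tested, 37.8% and 36.5% were called lower. Irs2, an adaptor of the insulin receptor, had 31.1, 32.8 and 34.8 FPKM in LPS, 32.7, 31.998 and 32.1 in LPS + M2-Exo, 20.3, 19.2 and 20.6 in Hyp and 20.2, 19.2 and 22.2 in Hyp + M2-Exo. Grb10, an adaptor that dampens insulin signalling, had 1.84, 1.80 and 1.88 FPKM in LPS, 2.04, 2.18 and 1.99 in LPS + M2-Exo, 0.869, 0.930 and 0.888 in Hyp and 0.871, 0.789 and 0.871 in Hyp + M2-Exo. Both were lower in hyperoxia without overlap, at log2 fold changes of -0.81 ± 0.05 and -0.75 ± 0.06 for Irs2 and -1.13 ± 0.07 and -1.38 ± 0.09 for Grb10. Irs1, a close relative of Irs2 at 1.66 to 2.48 FPKM, was not called (0.12 ± 0.07 and 0.28 ± 0.11; adjusted p = 0.148 and 0.0525, edgeR). Irs1 lay near the threshold with M2-Exo, where 8 alternatives, among them leaving out replicate 1 of Hyp + M2-Exo, called it higher (adjusted p of 0.00666 to 0.0498), and 3 did so without M2-Exo (adjusted p of 0.0201 to 0.0431).

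Pik3r1, a regulatory subunit of PI3K, had 10.1, 9.81 and 10.1 FPKM in LPS, 10.2, 10.6 and 10.3 in LPS + M2-Exo, 5.95, 5.68 and 5.79 in Hyp and 5.72, 5.81 and 6.38 in Hyp + M2-Exo. Pik3cb, a catalytic subunit, had 12.1, 12.1 and 11.9 FPKM in LPS, 12.4, 12.4 and 12.4 in LPS + M2-Exo, 9.91, 9.53 and 9.30 in Hyp and 9.22, 9.32 and 8.96 in Hyp + M2-Exo. Pik3r1 fell by 0.88 in both comparisons and Pik3cb by 0.42 and 0.53 on the log2 scale, each without overlap. Pik3ca, the other catalytic subunit among the members, was lower by 0.29 in both, with overlap of the groups in the second. The first call was lost without any 1 of the 3 Hyp libraries, the second in 4 of 6 fits that left out 1 library, and both by library size alone. Akt1, more abundant than Akt2, had 57.9, 61.003 and 60.9 FPKM in LPS, 62.6, 58.7 and 60.8 in LPS + M2-Exo, 46.3, 45.5 and 47.9 in Hyp and 43.5, 41.95 and 41.1 in Hyp + M2-Exo. It was lower in hyperoxia, at log2 fold changes of -0.45 ± 0.04 (adjusted p = 9.49e-06, edgeR) and -0.62 ± 0.04 (adjusted p = 2.87e-06, edgeR), while Akt2 was called without M2-Exo only (-0.14 ± 0.04, lost by library size alone). Pdpk1, the kinase that activates AKT, had 8.05, 7.61 and 7.92 FPKM in LPS, 7.94, 7.58 and 7.85 in LPS + M2-Exo, 10.7, 10.5 and 10.9 in Hyp and 11.5, 11.4 and 11.8 in Hyp + M2-Exo. Pdpk1 was the exception of this group, higher in hyperoxia by 0.36 ± 0.04 and 0.48 ± 0.04.

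The kinases LKB1 and AMPK signal low energy and restrain mTORC1. Stk11 (LKB1), at 9.33 to 12.3 FPKM, was lower in hyperoxia in both comparisons (-0.31 ± 0.04 and -0.36 ± 0.07). Prkaa1, the main AMPK catalytic subunit here at 18.4 to 21.6 FPKM, was not called in either. Prkaa2, the other catalytic subunit, was higher (0.91 ± 0.29 and 1.16 ± 0.22) at a level of 0.134 to 0.466 FPKM, or 20 to 87 counts, and the first of these calls was lost in 4 of 6 fits that left out 1 library.

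**Figure D5:**
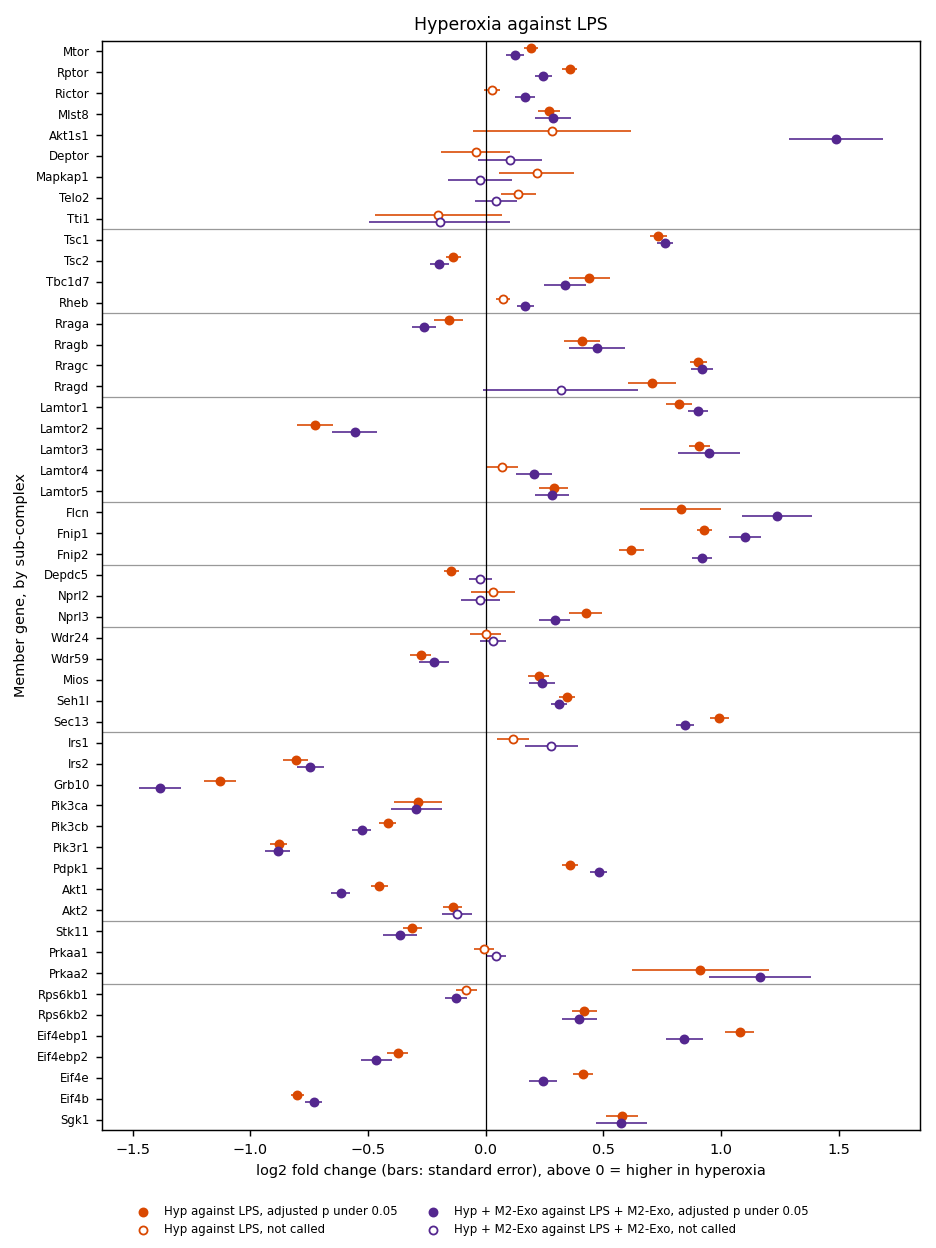
The log2 fold change of 52 members in hyperoxia against LPS, without M2-Exo (orange) and with M2-Exo in both groups (purple), with its standard error as a bar; filled points are called. All 3 members of the folliculin complex lie to the right of 0, most of the IRS, PI3K and AKT group to the left, and the Ragulator on both sides.

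Of the 7 members listed as outputs of mTOR signalling, 4 were called higher and 2 lower in Hyp against LPS. With M2-Exo in both groups, 4 were called higher and 3 lower. Of all genes, 38% and 37.8% were called higher and lower without M2-Exo, and 37.1% and 36.5% with it. Eif4ebp1 (4E-BP1), the repressor of Eif4e that mTORC1 phosphorylates, had 31.4, 32.05 and 35.6 FPKM in LPS, 34.5, 41.9 and 37.3 in LPS + M2-Exo, 72.5, 74.9 and 75.4 in Hyp and 74.1, 70.1 and 73.4 in Hyp + M2-Exo. Eif4ebp2, a repressor of the same family, had 26.5, 26.1 and 26.9 FPKM in LPS, 28.1, 24.8 and 26.4 in LPS + M2-Exo, 20.9, 22.03 and 22.2 in Hyp and 21.5, 19.2 and 20.5 in Hyp + M2-Exo. These relatives went opposite ways in hyperoxia, Eif4ebp1 up by 1.08 ± 0.06 and 0.84 ± 0.08, and Eif4ebp2 down, at -0.37 ± 0.04 and -0.46 ± 0.07 on the log2 scale. Eif4e, the cap-binding protein they restrain, had 13.999, 13.8 and 14.9 FPKM in LPS, 14.1, 15.1 and 15.3 in LPS + M2-Exo, 20.4, 19.6 and 20.4 in Hyp and 19.7, 18.97 and 17.3 in Hyp + M2-Exo. It was higher in hyperoxia by 0.41 ± 0.04 and 0.24 ± 0.06. Eif4b, a helper of the RNA helicase of initiation and the most abundant member, had 227, 233 and 226 FPKM in LPS, 219, 229 and 219 in LPS + M2-Exo, 142, 137 and 141 in Hyp and 144, 141 and 143 in Hyp + M2-Exo. Eif4b was lower in all 6 hyperoxia libraries, at log2 fold changes of -0.80 ± 0.03 (adjusted p = 1.54e-07, edgeR) and -0.73 ± 0.04 (adjusted p = 8.74e-07, edgeR).

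Among the kinases below mTOR, Rps6kb2 (S6K2) had 5.79, 5.92 and 5.79 FPKM in LPS, 5.32, 5.82 and 4.92 in LPS + M2-Exo, 8.61, 8.03 and 8.25 in Hyp and 7.42, 7.65 and 7.45 in Hyp + M2-Exo. Sgk1, a target of mTORC2, had 1.996, 2.07 and 2.24 FPKM in LPS, 1.98, 2.32 and 2.62 in LPS + M2-Exo, 3.25, 3.27 and 3.51 in Hyp and 3.85, 3.36 and 3.80 in Hyp + M2-Exo. Both were higher in hyperoxia, Rps6kb2 by 0.42 ± 0.05 and 0.40 ± 0.07 and Sgk1 by 0.58 ± 0.07 and 0.58 ± 0.11. Rps6kb1 (S6K1), at 12.8 to 14.7 FPKM, was called with M2-Exo only (-0.13 ± 0.05, adjusted p = 0.0391, edgeR), where its groups overlapped and the call was lost in 5 of 6 fits that left out 1 library and by DESeq2.

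Other genes of the pathway, 57 listed by role, gave the same split between the comparisons. Of 53 tested, edgeR called 0 with M2-Exo in LPS and 0 in hyperoxia, where 0.187% and 0.101% of all genes were called. Of the same 53, 10 and 9 had an unadjusted p under 0.05, larger shares than the 11.1% and 8.48% of all genes. Between hyperoxia and LPS, 40 were called (15 higher, 25 lower) without M2-Exo and 40 with it (17 higher, 23 lower). These totals were 75.5% each, near the 75.8% and 73.7% of all genes. By direction, more of these genes were lower than higher. Of all genes, 38% and 37.1% were called higher and 37.8% and 36.5% lower. The 8 with the smallest adjusted p in each comparison held some of the largest differences in the pathway. Among the amino acid sensors and transporters, Slc7a5, the transporting subunit of the leucine carrier LAT1, was higher by 1.97 ± 0.04 and 1.57 ± 0.05, and its partner Slc3a2 was among the 8 without M2-Exo at 1.28 ± 0.04. The leucine sensor Sesn2 was higher (1.66 ± 0.06 and 1.47 ± 0.07) and its relative Sesn1 lower (-1.85 ± 0.07 and -1.54 ± 0.06). Trib3, an inhibitor of AKT, was higher by 2.77 ± 0.06 and 2.59 ± 0.08. Pdcd4, a repressor of translation that S6K marks for decay, fell (-2.89 ± 0.09 and -2.69 ± 0.08), as did Srebf2, the regulator of sterol synthesis (-1.47 ± 0.04 and -1.44 ± 0.03), and the growth factor receptor Igf1r (-1.47 ± 0.06 and -1.55 ± 0.05). Pik3r2, a regulatory subunit of PI3K, was among the 8 with M2-Exo (-1.40 ± 0.05).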

How the data were processed

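RNA was sequenced from 12 libraries of MLE-12 cells in 4 groups of 3. The authors filtered the reads with Seqtk and mapped them with HISAT2; the submitters' processing notes name HISAT2 2.0.4, StringTie 1.3.0, edgeR and the build GRCm38, and the annotation and counting program are not given in the sources used here. Per gene and library, the deposited table holds raw read counts and the FPKM that the authors made from them; 0 value columns were left unused. The tests were run on the counts with edgeR 4.0.16 in R 4.3.3 (filterByExpr, TMM, quasi-likelihood F test, Benjamini-Hochberg over all genes tested). Each comparison of 2 groups was fitted on its 6 libraries, and the interaction on all 12. The standard error is the log2 fold change divided by the root of F.

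FPKM are given for levels and were tested, as an alternative, with limma 3.58.1 on log2(FPKM + 1) and log2(FPKM + 0.1); DESeq2 1.42.0, RLE or library-size scaling, other filters, the replicate block and leaving out each library were the others. The script was tested on simulated data.

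Values in every library are given for the 24 members with the smallest adjusted p in any test, for Mtor, Rptor, Rictor, Tsc1, Tsc2 and Rheb, and, chosen after their values were seen, for Rragd and Tti1 (the latter as ranges). At most 8 other pathway genes per comparison were named, by adjusted p. The members and all gene lists were chosen with earlier results of these data known. Castor1, Castor2 and Bmt2 were not matched by symbol, and Sgk2 was too low to be tested. With 16021833 counts or more per library, counting error matters mainly for members of low count, and the tests rest on the spread between libraries.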

Additional observations from a re-analysis of the deposited data

How the results depend on the processing

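The counts of members called kept within 1.5 times of the reported ones in most alternatives. With M2-Exo in LPS, DESeq2 called 2 members (Rragd and, lower, Fnip2), a fit of all 12 libraries called 0, and a p under 0.05 before adjustment with a change of 2 or more on the log2 scale called 0. Those thresholds also called 0 members in Hyp against LPS and 0 with M2-Exo in both groups, and calls of 0.5 or more on the log2 scale numbered 17 and 19. In the interaction, DESeq2 called 1, Fnip2 (0.30, adjusted p = 0.0394). Without 1 library at a time, 1 to 1 members were called with M2-Exo in LPS, 0 to 1 in hyperoxia (Akt1s1 without replicate 2 of Hyp, Rragd without replicate 1 of Hyp + M2-Exo), 37 to 38 in Hyp against LPS, 37 to 42 with M2-Exo in both groups and 0 to 0 in the interaction. The 81 calls of a member in a comparison gave 1292 values over these alternatives: 0 changed direction and 75 lost the call, 70 of them of differences below 0.3 on the log2 scale. Results that were not called gained a call in 41 values, of 13 members, most often Irs1 and Rheb. Over 14187 genes, the deviations of libraries with equal replicate numbers correlated between -0.02 and 0.05. A correlation over all genes cannot exclude a replicate effect on single genes, such as Tti1, which was high in replicate 1 of every group. A fit with the replicate block called 1, 0, 39, 42 and 0 members in the 5 tests. With that block Tti1, not called without it, was called lower in hyperoxia (-0.21 without M2-Exo, adjusted p = 0.0234; -0.20 with it, adjusted p = 0.0339; edgeR). Depth limits Prr5, Prr5l and Prkaa2, and read sharing limits the members that overlap or resemble other genes.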

Other observations

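By position, 21 of the 54 members overlap another gene of the table, and for 11 of them that gene had at least 10 counts in some library. Beside the pairs already given, Akt1s1 shares 89 bases with Tbc1d17 on the opposite strand, whose counts lay between 546 and 793 in all libraries, Stk11 shares 232 bases with Cbarp, whose counts were 191 to 239 in the LPS libraries and 496 to 672 in the hyperoxia libraries, and Rps6kb1 shares 155 bases with Rnft1. Stretches of 50 bases shared with other genes made up 9.76% of the transcript of Akt2, all of them with the pseudogene Akt2-ps, 6.02% of Eif4e and 5.19% of Pik3cb.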
